A study of Oryza sativa with 4 samples.

Results

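The loci described here encode proteins that loosen, remodel or decorate the primary cell wall. They are expansins, xyloglucan enzymes, enzymes that modify or cut pectin, proteins described as inhibitors of such enzymes, fasciclin-domain proteins and arabinogalactan proteins. They were chosen by words in the gene descriptions that the authors deposited (expansin, xyloglucan, pectin, polygalacturonase, fasciclin or arabinogalactan), which gave 194 of the 31453 loci listed. By description they fell into 7 classes. There were 43 expansins, 20 xyloglucan loci, 35 pectin-modifying enzymes, 31 polygalacturonases, 34 inhibitors, 24 fasciclins and 7 other arabinogalactan proteins. Loci are named by their locus identifiers and deposited descriptions, because no gene symbols were paired with them.

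In the growing wall, cellulose microfibrils are held in a matrix of hemicelluloses such as xyloglucan and of pectins, and grasses have less of both than most other flowering plants. Expansins loosen the contacts between wall polymers without cutting them, pectinesterases strip methyl groups from pectin, and polygalacturonases cut the stripped backbone. Small inhibitor proteins bind pectinesterases or invertases, and polygalacturonase inhibitors are directed against fungal polygalacturonases. Fasciclin-like and other arabinogalactan proteins are heavily glycosylated proteins of the cell surface.

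RNA was sequenced from 4 rice libraries, 1 per group, taken 15 days after panicle emergence, in the middle of grain filling. The groups were developing grain of Sharbati, a cultivar with 24.88 ppm of iron in its brown rice, developing grain of Lalat, with 7.80 ppm, roots of Sharbati and roots of Lalat. Plants of both cultivars grew in pots of soil and farmyard manure in a net house and received no treatment named in the labels. The labels do not say how many plants gave each library or whether the grain samples included the husk.

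Levels are the authors' FPKM, which counts fragments relative to transcript length and library size, a scale on which loci of different length can be set side by side. With 1 library per group no difference could be set against a spread between plants, so every comparison below is a description of these libraries and carries no test. The Sharbati root library was the least sensitive. A single fragment corresponded to a median of 1.07 FPKM there, as inferred from the deposited p-values, against 0.0302, 0.0402 and 0.105 FPKM in Sharbati grain, Lalat grain and Lalat root. Endosperm storage transcripts (43 glutelin and prolamin loci) summed to 310234 FPKM in Sharbati grain, 182084 in Lalat grain, 180.1 in Sharbati root and 7037 in Lalat root, that is, up to 0.800% of all FPKM in a root library. The 3 silicon and ammonium transporter loci taken as root markers summed to 0.275, 0.719, 289 and 131 FPKM in the same order. In whole organs, fewer cells of a type and less RNA per cell cannot be told apart.

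Most of the wall loci were weakly expressed in grain and many were well expressed in root. Of the 194, 16 reached 5 FPKM in Sharbati grain, 25 in Lalat grain, 25 in Sharbati root and 61 in Lalat root. Their median level among loci above 0 was 0.277 FPKM in Sharbati grain, 0.442 in Lalat grain, 3.62 in Sharbati root and 3.21 in Lalat root. Over all loci above 0 the same medians were 0.638, 1.18, 5.88 and 6.53 FPKM. In grain the fasciclins led, with 476 of the 918 FPKM summed over the 194 loci in Sharbati and 791 of 1228 FPKM in Lalat. In root the inhibitors led in Sharbati, with 820 of 1363 FPKM, and the pectin-modifying enzymes led in Lalat, with 580 of 2193 FPKM, closely followed by the expansins with 532 FPKM.

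**Figure D1:**
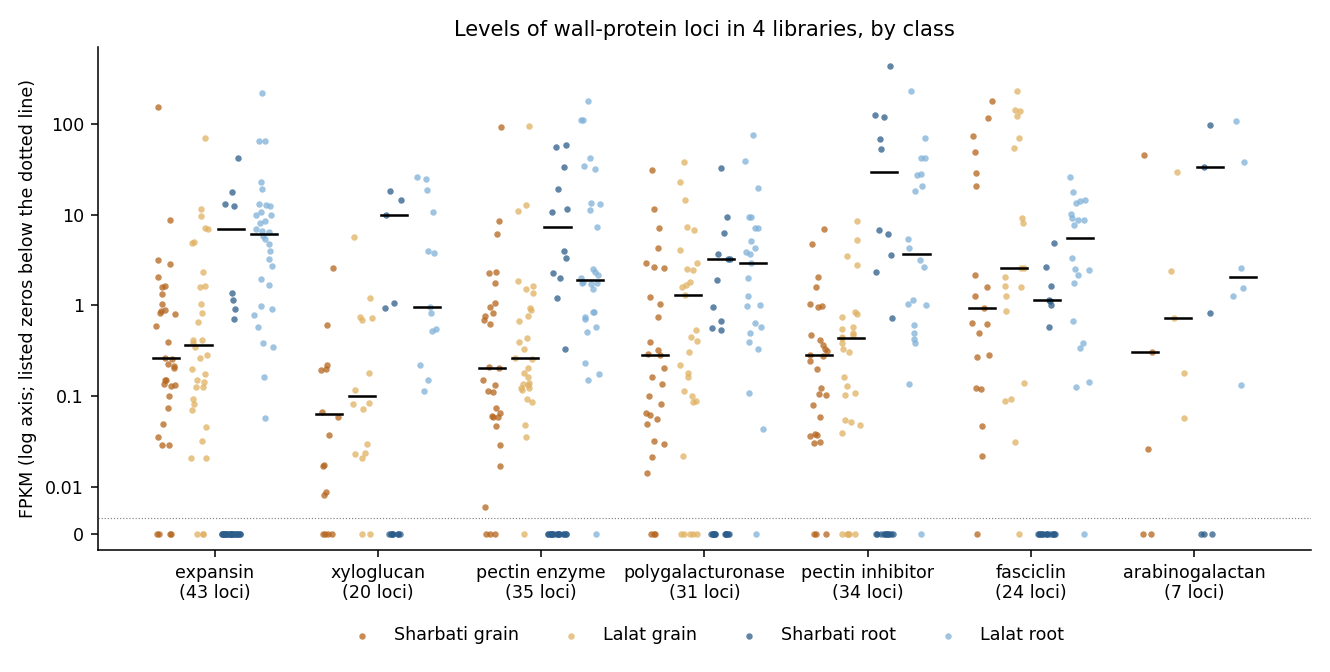
Each point is 1 locus in 1 library on a log axis of FPKM, grouped by class, with values listed at 0 placed below the dotted line and a bar at the median of the loci above 0. The highest grain points belong to the fasciclins (up to 233 FPKM), the highest root point is an inhibitor (434 FPKM), and more listed loci lie at 0 in Sharbati root than in the other libraries in each class.

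Between the grain libraries, the widest gap was at a fasciclin-domain locus. LOC_Os09g30010 (chromosome 9, 18257643 to 18258802) stood at 0.635 FPKM in Sharbati grain and 55.0 FPKM in Lalat grain, 86.7-fold lower in Sharbati. A pair of neighbouring expansins were also far lower in Sharbati grain: LOC_Os10g40720 had 0.215 FPKM against 6.99 FPKM in Lalat grain, and LOC_Os10g40730 had 0.814 against 11.5 FPKM. In the other direction, the pectinesterase LOC_Os04g54850 had 6.18 FPKM in Sharbati grain and 0.431 FPKM in Lalat grain. The most abundant expansin of grain, LOC_Os10g39640, had 153 FPKM in Sharbati grain and 69.3 FPKM in Lalat grain.

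Ratios were taken as the log2 of Sharbati over Lalat after adding 1 FPKM to each, for loci above 0 in both libraries and at 1 FPKM or more in at least 1. On this scale 60 of the wall loci could be compared in grain. The Sharbati level exceeded the Lalat level by 2-fold or more at 6 of them (10%), beside 6.31% of all loci compared, and fell short of it by 2-fold or more at 21 (35%), beside 17.4% of all loci. Their median ratio was -0.58, against -0.35 for all loci. After dividing out the median ratio of loci at 1 FPKM or more in both libraries, which was -0.29, 9 were higher and 20 lower. Among all 13417 loci compared, 1324 were then higher and 1606 lower. Markers of other grain tissues summed to less in Sharbati grain as well. Oleosins, which mark embryo and aleurone, had 119 FPKM in Sharbati grain and 239 FPKM in Lalat grain, with 7 of 7 loci above 0 in each. Chlorophyll-binding loci had 17.6 FPKM in Sharbati grain and 34.9 FPKM in Lalat grain (17 and 14 of 17 above 0), and pollen or anther loci 260 and 439 FPKM (37 and 38 of 54 above 0). The pollen or anther list includes loci of the pollen Ole e I and extensin family, which are also counted among the extensins below. It is thus not a marker list of pollen or anther alone. Their part in the lower wall loci was not tested. The authors' deposited table called 15 of the 165 wall loci listed for grain different between the libraries, 1 higher in Sharbati (0.928% of all listed loci were so called) and 14 lower (2.96% of all listed loci). These calls rest on 2 libraries and on a false discovery rate of 0.05 set by the authors.

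**Figure D2:**
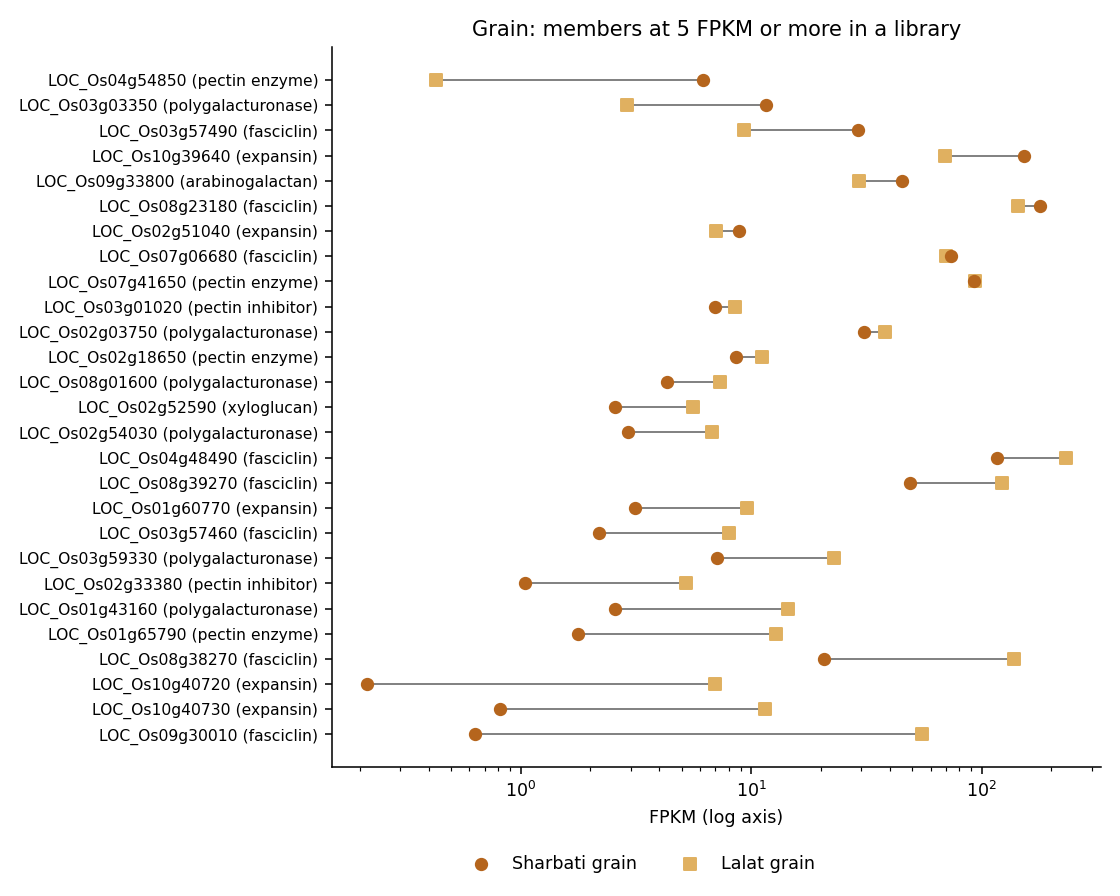
The FPKM of each wall locus at 5 FPKM or more in a grain library is shown on a log axis, with Sharbati grain as circles and Lalat grain as squares joined by a line, sorted by their ratio. The fasciclin LOC_Os09g30010 and a pair of chromosome 10 expansins lie at the bottom, with Sharbati far to the left of Lalat, while the pectinesterase LOC_Os04g54850 lies at the top with the order turned round.

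In root, 3 of the 7 loci at least 2-fold higher in Sharbati were inhibitors. The polygalacturonase inhibitor LOC_Os05g01380 had 119 FPKM in Sharbati root and 18.1 FPKM in Lalat root. The invertase/pectin methylesterase inhibitor LOC_Os12g18560 had 127 FPKM in Sharbati root and 27.4 FPKM in Lalat root. The beta-expansin LOC_Os07g31390 stood at 12.6 FPKM in Sharbati root and 0.380 FPKM in Lalat root, the highest ratio among the root loci compared (3.30 on the log2 scale). Lower in Sharbati root were the leading expansin LOC_Os03g04020, with 42.0 FPKM against 221 FPKM in Lalat root, and the leading pectinesterase LOC_Os01g57854, with 33.9 against 181 FPKM.

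By the same measure 7 of 51 wall loci (13.7%) were higher in Sharbati root, beside 5.51% of all loci compared, and 24 (47.1%) were lower, beside 46.7% of all loci. The share of lower loci before scaling was close to that among all loci. The median ratio was -0.96 for the wall loci and -0.92 for all loci. After median scaling, which divides out a median root ratio of -1.0, they were -0.12 and -0.04. The scaled counts were 10 of 51 wall loci higher and 18 lower, beside 2354 of 13653 loci higher and 2891 lower. The scaled share of lower loci was thus larger among the wall loci than among all loci. Of the 56 wall loci above 0 in Sharbati root, 34 lay at or below 7.14 FPKM, the 95th percentile of what a single fragment was worth there. Among the 22 above it, 4 were higher in Sharbati by 2-fold or more and 7 lower. Sharbati root values at or below 7.14 FPKM of loci named in any class carry this limit. The authors' deposited table called 0 of the 146 wall loci listed for root, beside 0.274% of all listed loci called higher in Sharbati and 0.864% called lower. The unadjusted p-value in the authors' deposited table was at or under 0.05 for 59 of the 146 (40.4%), beside 25.7% of all listed loci. Chlorophyll-binding loci summed to 25.8 FPKM in Sharbati root and 63.2 FPKM in Lalat root (10 and 15 of 17 above 0). Oleosins were equal, at 2.50 FPKM in each root library (1 and 3 of 7 above 0). Pollen or anther loci summed to 284 FPKM in Sharbati root and 761 FPKM in Lalat root (18 and 29 of 54 above 0). That list includes pollen Ole e I and extensin family loci at up to 111 FPKM in Sharbati root and 106 FPKM in Lalat root. Its sum therefore does not mark another tissue. The part of these 3 lists in the root differences was not tested.

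Many wall loci seen in Lalat root were listed at 0 in Sharbati root. Of the 146 listed for root, 90 were above 0 in Lalat root and at 0 in Sharbati root, and 4 had the opposite pattern. Among all 25225 loci listed for root the same counts were 9641 and 1485. Of the 61 wall loci at 5 FPKM or more in Lalat root, 24 (39.3%) were at 0 in Sharbati root, beside 15.2% of all loci at that level. Restricting both to 5 to 25 FPKM, a range chosen after the values were seen, gave 23 of 40 wall loci (57.5%) and 23.1% of all loci. Expansins made up 12 of these 23 and fasciclins 6. Short loci were at 0 more often among all loci too. Of loci in this range listed over less than 2000 bp, 15 of 21 wall loci (71.4%) and 44.0% of all loci were at 0, while among longer loci it was 8 of 19 wall loci (42.1%) and 17.9% of all. The wall loci in this range spanned a median of 1945 bp and all loci 3842 bp, and the part that length and depth play in these zeros was not tested beyond this split.

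**Figure D3:**
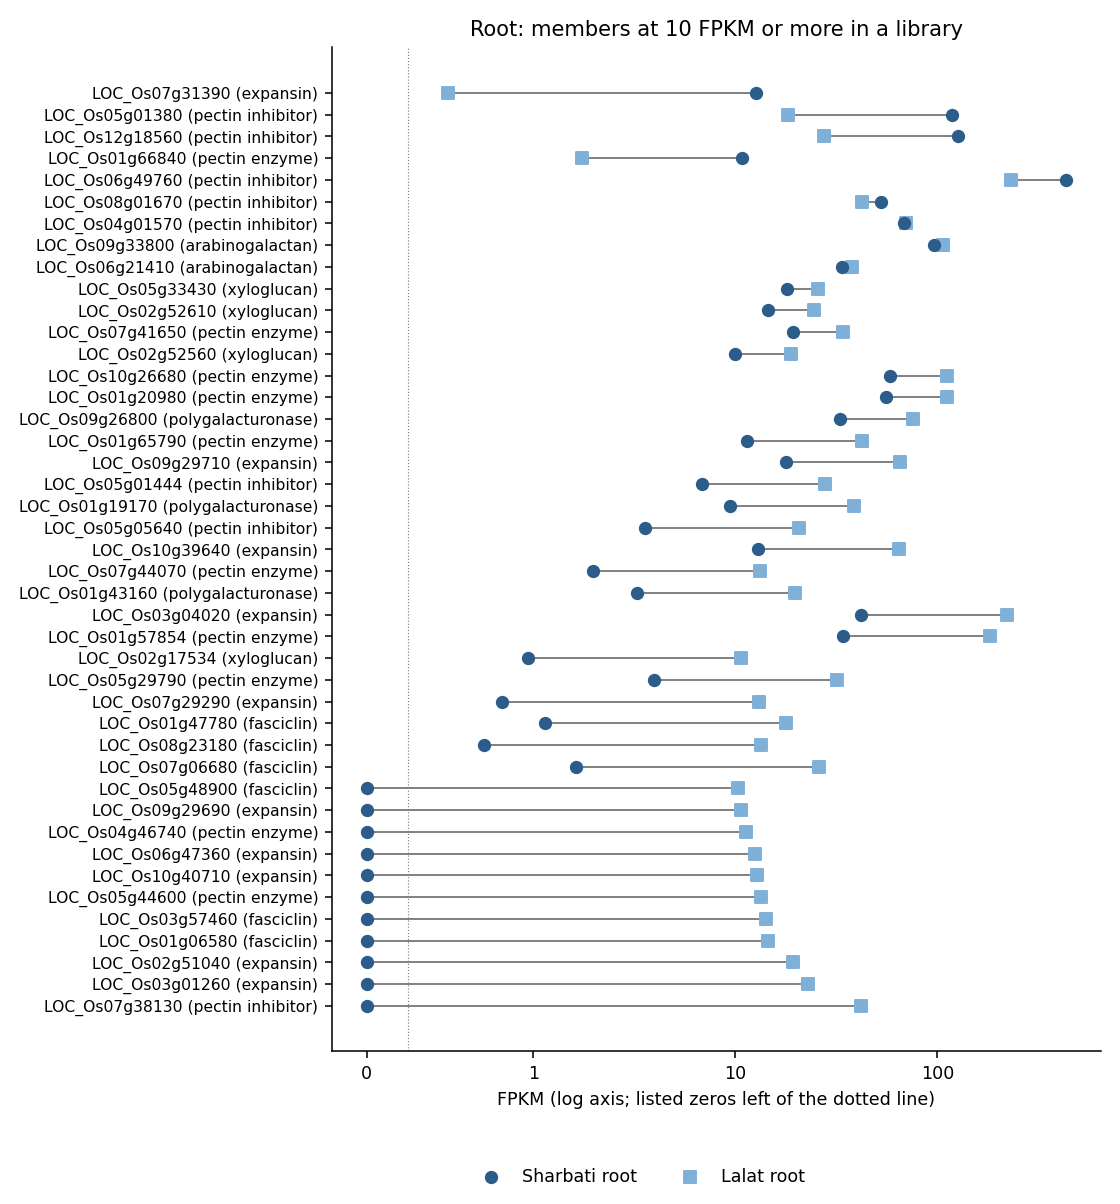
The FPKM of each wall locus at 10 FPKM or more in a root library is shown on a log axis, with Sharbati root as circles and Lalat root as squares, sorted by their ratio and with values listed at 0 left of the dotted line. Inhibitors are frequent at the top, where Sharbati is higher, and 11 loci at the bottom have 10.3 to 41.8 FPKM in Lalat root and 0 in Sharbati root.

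Between organs, the fasciclins summed to more in grain in both cultivars, and the pectin-modifying enzymes and inhibitors to more in root. Expansin levels summed to 182 FPKM in grain and 89.5 FPKM in root in Sharbati, and to 126 FPKM in grain and 532 FPKM in root in Lalat, so their order differed between the cultivars. In Sharbati grain LOC_Os10g39640 alone accounted for 153 of the 182 FPKM. The pectinesterase LOC_Os10g26680 had 0.620 FPKM in Sharbati grain and 58.0 in Sharbati root, and 0.770 FPKM in Lalat grain and 112 in Lalat root. The fasciclin-like arabinogalactan locus LOC_Os08g23180 had 179 FPKM in Sharbati grain and 0.571 in Sharbati root, and 143 FPKM in Lalat grain and 13.5 in Lalat root. The authors made the grain and root tables as separate comparisons, so levels set across the organs are descriptive.

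In Sharbati, 36 wall loci could be compared between organs: 7 (19.4%) were at least 2-fold higher in grain than in root, beside 14.0% of all loci compared, and 19 (52.8%) were lower, beside 51.0%. In Lalat, 90 could be compared: 15 (16.7%) were higher in grain, beside 7.11% of all loci, and 55 (61.1%) were lower, beside 59.7%. Median grain-over-root ratios were -1.28 in Sharbati and -1.41 in Lalat, against -1.04 and -1.30 for all loci. Median scaling, which divides out -0.53 in Sharbati and -1.20 in Lalat, left 7 higher and 18 lower in Sharbati and 24 higher and 43 lower in Lalat. Among all loci it left 2532 of 12648 higher and 5477 lower in Sharbati. For Lalat it left 3084 of 17533 higher and 6584 lower. Of 30 loci that could be compared in both cultivars, 5 (16.7%) were at least 2-fold higher in grain in both, beside 3.67% of all loci so compared, and 14 (46.7%) were lower in both, beside 43.1%.

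**Figure D4:**
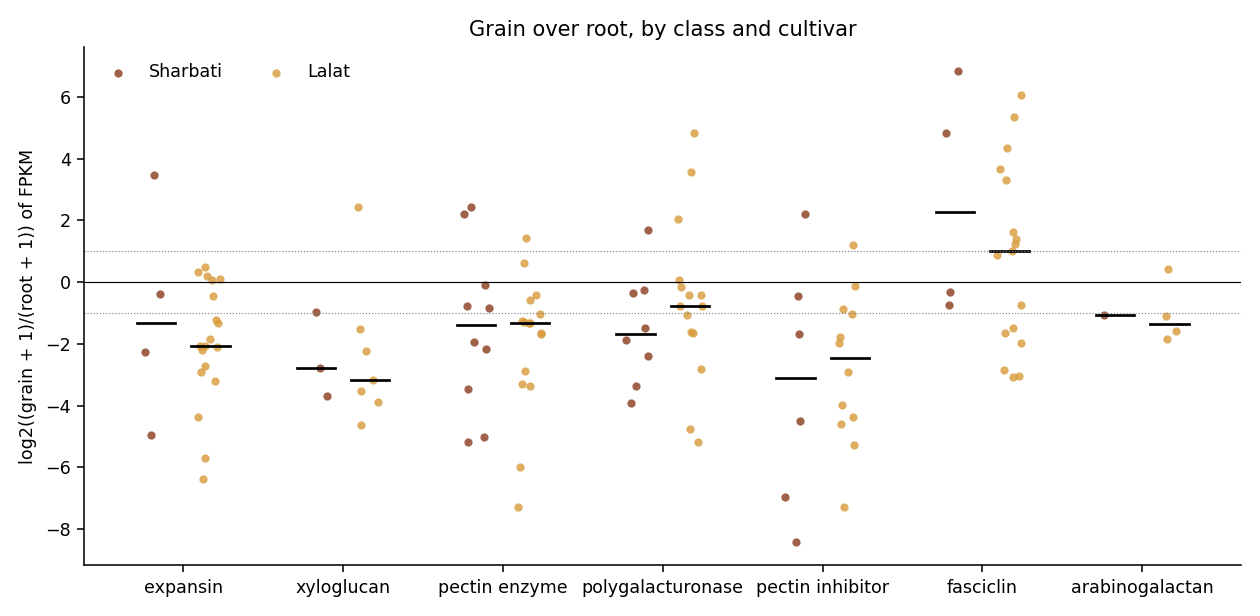
Each point is the log2 of grain over root FPKM, with 1 FPKM added to each, for 1 locus in Sharbati (left in each class) or Lalat (right), with bars at the medians and dotted lines at 2-fold. Fasciclin medians lie above 0 (2.27 in Sharbati, 1.02 in Lalat), and in the other classes the medians lie below 0 in both cultivars, although median scaling would turn the Lalat polygalacturonase median to 0.17.

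Expansins are encoded by a large family in rice. Here 37 loci are described only as expansins and 6 as beta-expansins, a branch that is enlarged in grasses and includes the major pollen allergens. The description of the 37 names no branch, so beta-expansins may be among them. The leading root expansin, LOC_Os03g04020 (chromosome 3, 1831331 to 1833506), had 0.398 FPKM in Sharbati grain and 1.64 FPKM in Lalat grain, beside its 42.0 and 221 FPKM in the roots. LOC_Os10g39640 (chromosome 10, 21179528 to 21181718), the leading grain expansin, had 13.0 FPKM in Sharbati root and 64.7 FPKM in Lalat root. It was thus 2.21-fold higher in Sharbati grain and 5.0-fold lower in Sharbati root. The beta-expansin LOC_Os09g29710 had 2.86 FPKM in Sharbati grain and 0.280 FPKM in Lalat grain, but 17.7 FPKM in Sharbati root and 65.3 FPKM in Lalat root. Sharbati was again the higher cultivar in grain and the lower in root. After median scaling its root ratio moved to -0.86, inside 2-fold.

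Of the 15 expansins compared between the grains, 3 were higher by 2-fold or more in Sharbati and 7 lower, with a median ratio of -0.92. Over all loci compared in grain, 6.31% were higher and 17.4% lower. In root 1 of 8 expansins was higher, beside 5.51% of all loci compared, and 6 were lower, beside 46.7%. The expansin median in root was -2.08, and -1.34 after median scaling. The lone higher locus was the beta-expansin LOC_Os07g31390, already described. The lowest root ratio of the class belonged to LOC_Os07g29290. It had 0.261 FPKM in Sharbati grain and 2.31 FPKM in Lalat grain, and 0.700 FPKM in Sharbati root and 13.1 FPKM in Lalat root. Its Sharbati root value lies in the range of a single fragment there (0.223 to 7.14 FPKM, 5th to 95th percentile). The authors' deposited table called this locus in grain (p = 0.0016).

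The expansins were the class most often listed at 0 in Sharbati root: 24 of 32 with a root row, against 0 of 32 in Lalat root. Fasciclins followed at 14 of 21 and xyloglucan loci at 8 of 13. Among all 25225 loci with a root row, 9641 were at 0 in Sharbati root and 1485 in Lalat root. Of the 18 expansins at 5 FPKM or more in Lalat root, 12 were at 0 in Sharbati root, beside 15.2% of all loci at that level. LOC_Os03g01260 stood at 22.8 FPKM in Lalat root, LOC_Os02g51040 at 19.2, LOC_Os10g40710 at 12.8, and the beta-expansins LOC_Os06g47360 and LOC_Os09g29690 at 12.5 and 10.7 FPKM, all beside a listed 0 in Sharbati root. Of these, LOC_Os02g51040 was well expressed in both grains, at 8.83 FPKM in Sharbati and 7.05 FPKM in Lalat. In the range of 5 to 25 FPKM in Lalat root, all 10 expansins listed over less than 2000 bp were at 0 in Sharbati root, and 2 of the 5 longer ones were. In Lalat, root depth allowed 19 expansins to be compared between organs, with a median of -2.06. Of these, 0 were at least 2-fold higher in grain, beside 7.11% of all loci compared, and 13 were lower, beside 59.7%. After median scaling 5 were higher and 11 lower, beside 3084 and 6584 of 17533 loci.

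Several expansins lie next to each other. Grouping loci of a class within 100 kb of each other, a step added after the values were seen, gave 7 expansin groups with 20 loci. Of the 6 groups with grain rows, 4 had all their loci on the same side in grain, and the largest of each direction are given here. The other groups are pairs. Any difference counted as a side, down to 0.136 FPKM in Sharbati grain against 0.142 FPKM in Lalat grain at a locus of chromosome 3. Whether neighbours share a side more often than other loci was not tested. On chromosome 2, between 9551855 and 9601261, all 6 expansins were higher in Sharbati grain, with levels that summed to 5.94 FPKM in Sharbati grain and 1.44 FPKM in Lalat grain. The highest of them, LOC_Os02g16809, had 2.07 FPKM in Sharbati grain and 0.379 FPKM in Lalat grain, and LOC_Os02g16850 had 1.65 and 0.413 FPKM. LOC_Os02g16780 had 0.253 FPKM in Sharbati grain and was listed at 0 in Lalat grain. These levels are low, and only LOC_Os02g16809 passed 2-fold among the 2 that met the filter, once 1 FPKM was added to each level. Without that addition LOC_Os02g16850 was 3.99-fold higher in Sharbati grain.

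On chromosome 10, between 21830150 and 21861307, the 3 expansins with a grain row were all lower in Sharbati grain, with sums of 1.06 FPKM in Sharbati grain and 18.7 FPKM in Lalat grain. In root all 4 of the group were lower in Sharbati, at a sum of 1.38 FPKM in Sharbati root and 36.2 FPKM in Lalat root, and 3 of them were listed at 0 in Sharbati root. LOC_Os10g40730, the only one above 0 there, had 1.38 FPKM in Sharbati root and 9.94 FPKM in Lalat root. The authors' deposited table called LOC_Os10g40720 (p = 6.4e-07) and LOC_Os10g40730 (p = 3.6e-06) in grain and neither in root. Neighbouring copies can share reads, and no source used here says how reads with several matches were counted, so the split of a sum among neighbours is uncertain.

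**Figure D5:**
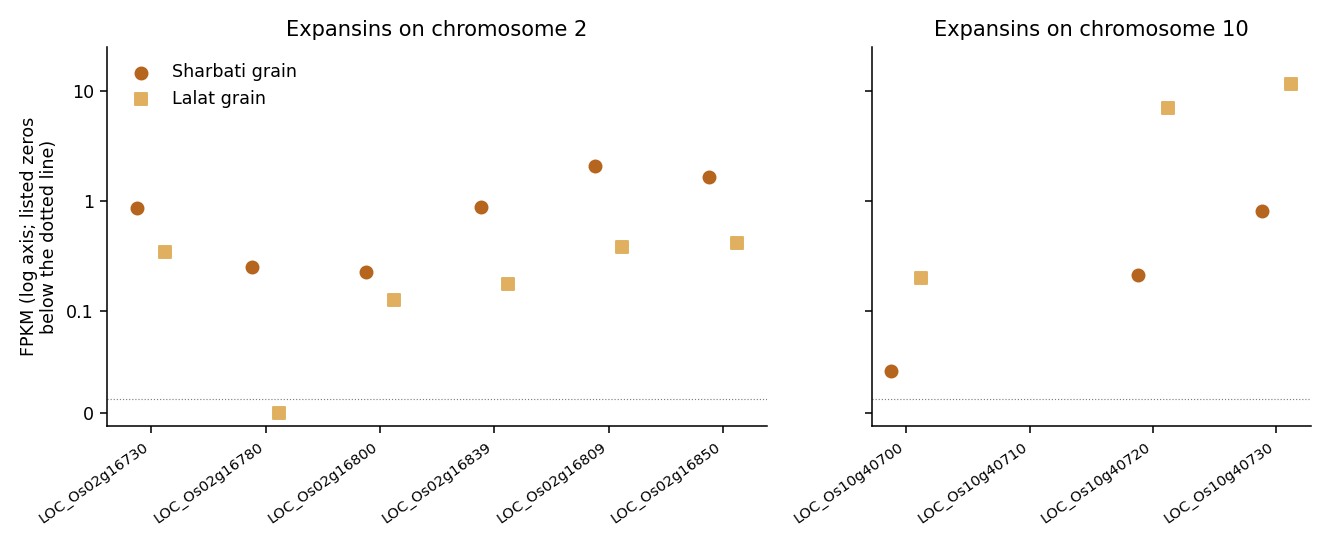
Grain FPKM on a log axis is shown for the neighbouring expansins of chromosome 2 (left) and chromosome 10 (right) in their order along the chromosome, with Sharbati as circles left of Lalat as squares. Sharbati is higher at all 6 loci of the chromosome 2 group and lower at the 3 loci of the chromosome 10 group that have a grain row.

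The xyloglucan loci comprised 14 fucosyltransferases, which add the terminal fucose to xyloglucan side chains, 4 galactosyltransferases and 2 xyloglucanase inhibitors. In grain a single locus of the class passed 5 FPKM, and the class summed to 3.99 FPKM in Sharbati grain and 9.63 FPKM in Lalat grain. Root levels were led by the xyloglucanase inhibitor LOC_Os05g33430, an inhibitor of enzymes that cut xyloglucan, with 18.0 FPKM in Sharbati root and 25.8 FPKM in Lalat root. It was listed at 0 in Sharbati grain and at 0.0839 FPKM in Lalat grain. Next came the fucosyltransferases LOC_Os02g52610, with 14.5 FPKM in Sharbati root and 24.6 FPKM in Lalat root, and LOC_Os02g52560, with 9.94 and 18.9 FPKM. Their grain levels were 0.193 FPKM (Sharbati) and 0.743 FPKM (Lalat) for LOC_Os02g52610 and 0.603 FPKM (Sharbati) and 1.21 FPKM (Lalat) for LOC_Os02g52560.

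Sharbati and Lalat root lay within 2-fold at 4 of the 5 xyloglucan loci compared, beside 6520 of all 13653 loci compared. None of the 4 loci at 5 FPKM or more in Lalat root was at 0 in Sharbati root, beside 15.2% of all such loci. The exception to the narrow gap was LOC_Os02g17534, with 0.944 FPKM in Sharbati root and 10.7 FPKM in Lalat root. That Sharbati root value lies in the range of a single fragment there. The class median in root was -0.73, and 0.22 after median scaling, so its direction turned with the scaling. In Lalat 6 of 7 loci were at least 2-fold lower in grain than in root, beside 59.7% of all loci compared. The class median there was -3.17. LOC_Os02g52560 and LOC_Os02g52610 belong to a group of 5 fucosyltransferases between 32164509 and 32199488 on chromosome 2, and all 5 were lower in Sharbati grain. Any difference counted, down to 0.0167 FPKM in Sharbati grain against 0.0234 FPKM in Lalat grain. The 2 that met the filter had grain ratios of -0.46 and -0.89, within 2-fold, beside a median of -0.35 for all loci. The highest in grain was LOC_Os02g52590, with 2.56 FPKM in Sharbati grain and 5.61 FPKM in Lalat grain, and with 0 listed in Sharbati root and 0.217 FPKM in Lalat root.

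The pectin-modifying enzymes were 25 pectinesterases and 10 pectin acetylesterases, which remove acetyl groups. The pectinesterase LOC_Os07g41650 (chromosome 7, 24961168 to 24964384) was the leading one in both grains and nearly equal in them, at 92.9 FPKM in Sharbati and 94.0 FPKM in Lalat. It had 19.3 FPKM in Sharbati root and 34.3 FPKM in Lalat root. The root set was different. LOC_Os01g57854, the leading root pectinesterase, had 0.0741 FPKM in Sharbati grain and 0.181 FPKM in Lalat grain, and LOC_Os01g20980, with 55.6 FPKM in Sharbati root and 111 FPKM in Lalat root, had no grain row.

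LOC_Os01g65790 was lower in Sharbati in both organs, with 1.77 FPKM in Sharbati grain and 12.9 FPKM in Lalat grain, and 11.5 FPKM in Sharbati root and 42.3 FPKM in Lalat root. The authors' deposited table called it in grain (p = 9.5e-05) and not in root (p = 0.102). LOC_Os04g54850, the pectinesterase higher in Sharbati grain, was the single wall locus called higher there in the authors' deposited table (p = 4.4e-06), and in root it had 0.330 FPKM in Sharbati and a listed 0 in Lalat. The pectin acetylesterase LOC_Os01g66840 had 0.0608 FPKM in Sharbati grain and 0.0849 FPKM in Lalat grain, and 10.8 FPKM in Sharbati root and 1.75 FPKM in Lalat root. LOC_Os05g29790 had 3.97 FPKM in Sharbati root and 31.8 FPKM in Lalat root. LOC_Os05g44600 and LOC_Os04g46740 were listed at 0 in Sharbati root beside 13.5 and 11.3 FPKM in Lalat root.

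In grain 7 of the 9 pectin-modifying enzymes compared lay within 2-fold, 1 was higher in Sharbati and 1 lower, with a median of -0.34. Of all loci compared in grain, 6.31% were higher and 17.4% lower. In root 2 of 11 enzymes were higher and 5 lower, beside 5.51% and 46.7% of all loci. The class median in root was -0.98 and moved to 0.00 after median scaling. In the organ comparison of Lalat 12 of 16 were lower in grain, beside 59.7% of all loci, with a median of -1.34. In that of Sharbati it was 5 of 10, beside 51.0% of all loci, with a median of -1.40.

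Polygalacturonases had a grain set and a root set of loci. The grain set was led by LOC_Os02g03750 (chromosome 2, 1570081 to 1574900), with 30.9 FPKM in Sharbati grain and 38.2 FPKM in Lalat grain, and with 0 listed in Sharbati root and 0.395 FPKM in Lalat root. LOC_Os03g59330 had 7.14 FPKM in Sharbati grain and 22.8 FPKM in Lalat grain, 0 in Sharbati root and 1.02 FPKM in Lalat root. LOC_Os03g03350 went the other way between the grains, at 11.6 FPKM in Sharbati and 2.90 FPKM in Lalat, with no root row. The root set was led by LOC_Os09g26800, with 32.9 FPKM in Sharbati root and 75.4 FPKM in Lalat root, and LOC_Os01g19170, with 9.47 and 38.7 FPKM. In grain LOC_Os09g26800 had 1.22 FPKM in Sharbati and 1.80 FPKM in Lalat, and LOC_Os01g19170 had 0.0210 and 0.0882 FPKM.

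LOC_Os01g43160 was well expressed in both organs of Lalat and lower in both organs of Sharbati, with 2.57 FPKM in Sharbati grain and 14.5 FPKM in Lalat grain, and with 3.26 FPKM in Sharbati root and 19.6 FPKM in Lalat root. The authors' deposited table called it in grain (p = 0.00055) and not in root (p = 0.0701). LOC_Os07g14160 had 0.389 FPKM in Sharbati grain and 1.66 FPKM in Lalat grain. It was the single polygalacturonase at least 2-fold higher in Sharbati root, at 6.31 FPKM against 1.99 FPKM in Lalat root. That Sharbati root value lies below 7.14 FPKM, the 95th percentile of a single fragment there. Across the class, 1 of 13 loci was higher and 5 lower in Sharbati grain (median -0.93), beside 6.31% and 17.4% of all loci. In Sharbati root 1 of 9 was higher and 6 lower (median -1.61, and -0.99 after median scaling), beside 5.51% and 46.7%. In Lalat 3 of 15 were higher in grain than in root and 6 lower, beside 7.11% and 59.7% of all loci. The class median there was -0.78 and turned to 0.17 after median scaling.

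The inhibitors were 17 invertase/pectin methylesterase inhibitors, 8 proteins with a pectinesterase inhibitor domain and 9 polygalacturonase inhibitors, leucine-rich repeat proteins that plants direct against fungal polygalacturonases. Some proteins of the first family inhibit invertases and others pectin methylesterases, and the descriptions do not say which. LOC_Os06g49760 (chromosome 6, 30105870 to 30106833) had 0.277 FPKM in Sharbati grain and 0.497 FPKM in Lalat grain, beside 434 FPKM in Sharbati root and 233 FPKM in Lalat root, the highest level of the 194 loci in either root library. LOC_Os04g01570 had 2.05 FPKM in Sharbati grain and 3.49 FPKM in Lalat grain, and nearly equal levels in the roots, at 68.3 FPKM in Sharbati and 69.7 FPKM in Lalat. LOC_Os12g18560, higher in Sharbati root, had 0.0309 FPKM in Sharbati grain and was listed at 0 in Lalat grain.

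The inhibitors were the class with the highest root median, 0.30. In Sharbati root 3 of 9 loci were higher, beside 5.51% of all loci, and 3 lower, beside 46.7%. After median scaling the class median was 1.28, with 5 higher and 1 lower, beside 2354 and 2891 of 13653 loci. The levels of the class summed to 820 FPKM in Sharbati root and 501 FPKM in Lalat root. Among the polygalacturonase inhibitors the loci differed in direction. LOC_Os05g01380, at 119 FPKM in Sharbati root, lies on chromosome 5 between LOC_Os05g01370, with 2.35 FPKM in Sharbati root and 0.490 FPKM in Lalat root, and LOC_Os05g01444, with 6.82 FPKM in Sharbati root and 27.8 FPKM in Lalat root. These neighbours were named after their values were seen. Their Sharbati root values lie below 7.14 FPKM, the 95th percentile of a single fragment there. LOC_Os07g38130 was listed at 0 in Sharbati root and stood at 41.8 FPKM in Lalat root, the highest level of any wall locus at 0 in its partner library. In Lalat 9 of 12 inhibitors were lower in grain than in root, beside 59.7% of all loci, with a class median of -2.46.

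The fasciclin class held 8 loci described as fasciclin-like arabinogalactan proteins and 16 with a fasciclin domain, a module thought to serve in adhesion at the cell surface. In grain 6 of them passed 10 FPKM in each cultivar. LOC_Os08g23180 had the highest level of the class in Sharbati grain, 179 FPKM. LOC_Os04g48490 (chromosome 4, 28910247 to 28911930) had the highest in Lalat grain, with 116 FPKM in Sharbati grain and 233 FPKM in Lalat grain, and with 0 listed in Sharbati root and 2.51 FPKM in Lalat root. LOC_Os08g39270 had 48.7 FPKM in Sharbati grain and 122 FPKM in Lalat grain, and LOC_Os07g06680 had 73.9 and 70.2 FPKM.

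LOC_Os08g38270 had 20.7 FPKM in Sharbati grain and 138 FPKM in Lalat grain, 6.69-fold lower in Sharbati, and the authors' deposited table called it (p = 1.6e-05). The same table gave its lowest p-value among the wall loci, 9.9e-14, to LOC_Os09g30010. LOC_Os09g30010 had 1.02 FPKM in Sharbati root and 1.77 FPKM in Lalat root. LOC_Os03g57490 was higher in Sharbati grain, at 29.2 FPKM against 9.28 FPKM in Lalat grain, and its neighbour LOC_Os03g57460 was lower, at 2.18 FPKM against 8.03 FPKM. Of 14 fasciclins compared between the grains, 1 was higher by 2-fold or more in Sharbati and 6 lower, with a median of -0.95. The shares over all loci were 6.31% higher and 17.4% lower.

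In root no fasciclin reached 5 FPKM in Sharbati, and 10 did in Lalat. LOC_Os07g06680 had 1.62 FPKM in Sharbati root and 25.8 FPKM in Lalat root, LOC_Os01g47780 had 1.14 and 17.8 FPKM, and LOC_Os08g23180 had 0.571 and 13.5 FPKM. LOC_Os01g06580, LOC_Os03g57460 and LOC_Os05g48900 were listed at 0 in Sharbati root beside 14.5, 14.2 and 10.3 FPKM in Lalat root. Each of the Sharbati root values above 0 named here lies in the range that a single fragment spanned in that library (0.223 to 7.14 FPKM, 5th to 95th percentile).

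Some of the fasciclins of Lalat root were those of the grain. As a share of the Lalat grain level, the Lalat root level was 1.08% for LOC_Os04g48490, 1.77% for LOC_Os08g38270, 3.21% for LOC_Os09g30010, 7.07% for LOC_Os08g39270, 9.40% for LOC_Os08g23180 and 36.8% for LOC_Os07g06680. Of the storage protein loci, 40 were above 0 in Lalat root. For the 25 above 0 in both Lalat libraries this share had a median of 0.563%, quartiles of 0.350% and 0.818% and a maximum of 9.03%. The grain-led polygalacturonase LOC_Os02g03750 stood at 1.03%. Summed over all 43 storage loci, Lalat root had 7037 FPKM and Lalat grain 182084 FPKM, a larger share than the median of the 25. The part of grain RNA in these Lalat root values was not tested. In Lalat 9 of 17 fasciclins were at least 2-fold higher in grain than in root and 6 lower, with a median of 1.02, and of 1.81 after median scaling. In Sharbati 2 of 4 were higher and 0 lower, with a median of 2.27. Of all loci, 7.11% were higher in grain and 59.7% lower in Lalat, and 14.0% and 51.0% in Sharbati.

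The remaining arabinogalactan proteins had 2 abundant loci with nearly equal levels in the roots of both cultivars. LOC_Os09g33800 (chromosome 9, 19955722 to 19958104) had 45.3 FPKM in Sharbati grain and 29.3 FPKM in Lalat grain, and 96.3 FPKM in Sharbati root and 107 FPKM in Lalat root. LOC_Os06g21410, described as an arabinogalactan peptide, had 33.8 FPKM in Sharbati root and 37.8 FPKM in Lalat root, with no grain row. The root ratios were -0.15 for LOC_Os09g33800 and -0.16 for LOC_Os06g21410, both nearer to 0 than the median root ratio of all loci.

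The lysine-rich arabinogalactan proteins were low. LOC_Os12g42900 had 0.309 FPKM in Sharbati grain and 2.39 FPKM in Lalat grain, which the authors' deposited table called (p = 0.003), and it was listed at 0 in Sharbati root and at 1.55 FPKM in Lalat root. LOC_Os03g63540 had 0.0258 FPKM in Sharbati grain, 0.180 in Lalat grain, 0.828 in Sharbati root and 2.57 in Lalat root.

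Other wall genes outside the 194, taken by description (family 16 glycosyl hydrolases, pectate lyases, rhamnogalacturonate enzymes, extensins, endoglucanases, BURP domain and COBRA proteins), numbered 105. In grain 24 were compared, with 1 at least 2-fold higher and 6 lower in Sharbati and a median of -0.38. The shares over all loci in grain were 6.31% and 17.4%. In root 25 were compared, with 2 higher and 13 lower and a median of -1.33, beside 5.51% and 46.7% of all loci. Median scaling gave 5 higher and 7 lower in root, with a median of -0.43. Between organs, 4 of 21 were higher in grain and 9 lower in Sharbati, beside 14.0% and 51.0% of all loci. For Lalat 5 of 43 were higher in grain and 28 lower, beside 7.11% and 59.7%. Family 16 holds the xyloglucan endotransglucosylases, which cut and rejoin xyloglucan chains. Its 6 loci compared in grain all lay within 2-fold, with a median of 0.34, while in root 5 of its 6 loci were lower in Sharbati, with a median of -2.30 and of -1.36 after median scaling.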

How the data were processed

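Poly(A) RNA of 4 libraries (developing grain and root of Sharbati and Lalat) was sequenced as paired ends, per the labels' protocols. Cuffdiff, Cufflinks 1.3.0, TopHat 1.3.3 and Bowtie 0.12.9 are named in the submitters' processing notes. No source used here names the genome build. FPKM values, a log ratio of the library pair (used here as a score for checks alone, headed as a natural log and running Lalat over Sharbati) and a p-value with a call were deposited by the authors per transcript, separately for the grain pair and the root pair. The deposited table holds 1 row per transcript. From it, distinct FPKM values of a locus were summed, a locus with no row in an organ was left out there, and coordinates were taken as listed. The FPKM worth of a single fragment was inferred from loci listed at 0 in the partner library with the deposited p-value that the smallest values share, so it is an estimate. Since the files used here give no fragment counts, values carry no counting interval.

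Ratios used a pseudocount of 1 FPKM on the log2 scale, a filter of 1 FPKM in at least 1 library and values above 0 in both, with a threshold of 2-fold, computed in Python 3.11.15 with pandas 2.3.3 and tested on simulated data. No test was made. The loci and lists were chosen with earlier results of these data known. Loci named singly were the up to 4 highest of each class, the 5 highest and the 5 lowest ratios of each comparison among loci at 5 FPKM or more, loci at 5 FPKM or more called in the authors' deposited table (up to 10 per organ) and loci at 0 in 1 library and at 10 FPKM or more in its partner. Others are LOC_Os02g16780, LOC_Os02g16809, LOC_Os02g16850, LOC_Os02g52590, LOC_Os05g01370 and LOC_Os05g01444, named after their values were seen. Alternatives were other pseudocounts, filters, thresholds, scaling by the median ratio, keeping zeros, taking the highest transcript value of a locus, and leaving out loci whose deposited p-value and log ratio carry no information (none of the wall loci). No sequences are shown. Files of called and annotated subsets were not used here.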

Additional observations from a re-analysis of the deposited data

Results flagged for a closer look

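In 2 expansins the cultivars stood in opposite order in the organs. LOC_Os09g29710, a beta-expansin, had a log2 ratio of Sharbati over Lalat of 1.59 in grain and -1.82 in root, a difference of 3.41. LOC_Os10g39640 had 1.13 in grain and -2.24 in root, a difference of 3.37. With 1 library per group the difference was not tested. The root ratio of all loci is itself shifted, to a median of -1.0, and after that shift is divided out the root ratio of LOC_Os09g29710 lies within 2-fold, at -0.86. LOC_Os09g29710 had 2.86 FPKM or less in either grain library.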

How the results depend on the processing

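Of 108 summary values under the alternatives, 30 could not move by construction: those taking the highest transcript value of a locus or leaving out loci with an uninformative deposited p-value, medians under a 4-fold threshold, and counts with no filter. Of the other 78, 50 stayed within 1.5 times of the main count or within the interval of the main median, 28 moved and 0 changed sign. Scaling by the median ratio moved the root median to -0.12, the Lalat grain-over-root median to -0.92 and its higher count to 24. With a 4-fold threshold the counts of higher and lower loci were 1 and 6 in grain, 4 and 13 in root and 9 and 32 between the Lalat organs. A pseudocount of 0.1 FPKM gave 10 higher loci in grain and medians of -2.61 (Sharbati organs) and -2.46 (Lalat organs). A pseudocount of 5 FPKM gave 8 lower loci in grain, 4 higher in root, and 34 lower with a median of -0.55 between the Lalat organs. A filter of 5 FPKM left 27 loci to compare in grain, 11 of them lower, against 21 of 60 in the main setting. Its medians were -2.58 (Sharbati organs, 22 loci) and -2.06 (Lalat organs, 59 loci). No filter gave a grain median of -0.13 over 128 loci. Keeping loci listed at 0 gave 77 lower of 106 loci and a median of -1.83 in root, against 24 of 51 in the main setting. Between the Sharbati organs it gave 26 higher of 58 loci and a median of -0.33, against 7 of 36. Keeping only loci above 7.14 FPKM in Sharbati root, chosen after seeing the data, gave 4 higher and 7 lower of 22 loci in root. Between the Sharbati organs it gave 2 higher of 16 loci and a median of -3.58. Settings of filter, zeros and depth change how many loci are compared, so their counts alone do not show a changed share. The cause of these shifts was not tested beyond the settings themselves. Of the ratios of single named loci, 15 moved under median scaling, 9 with a pseudocount of 5 FPKM and 5 with one of 0.1 FPKM. Depth limits Sharbati root most, where 34 of 56 wall loci above 0 lie at or below 7.14 FPKM. That bound is the 95th percentile of a single fragment over all loci, whose median was 1.07 FPKM. A value below it need not be a single fragment. No paired analysis was possible because each group holds 1 library.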
